A study of Rattus norvegicus with 18 samples.

Results

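The 10 genes described here encode enzymes that remove superoxide and peroxides or couple glutathione to reactive compounds. The peroxiredoxins are Prdx1, Prdx2, Prdx5 and Prdx6, the superoxide dismutases Sod1 and Sod2, and the glutathione peroxidases Gpx1 and Gpx4. The glutathione transferases are Gstm1 and Gsta4. All 10 genes were found by gene symbol among 38445 genes counted in stranded mRNA libraries of the ventral tegmental area. There was 1 library for each of 18 rats (Sprague-Dawley, adult, male). All 10 were among the 17637 genes with enough counts to be tested. The ventral tegmental area is the midbrain region whose dopamine neurons take part in reward and in the actions of ethanol. The 6 withdrawal rats (rats 13 to 18) lived for 15 or 16 days on the Lieber-DeCarli liquid diet, with ethanol at 9% v/v, and were taken 24 h after it was stopped. The 6 chronic ethanol rats (rats 7 to 12) had the same diet and were taken at 0 h, and the 6 control rats (rats 1 to 6) had the liquid diet without ethanol. All groups were wild type, and each library came from the tissue of a separately numbered rat.

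Superoxide dismutases turn superoxide into hydrogen peroxide, which peroxiredoxins and glutathione peroxidases then reduce to water. Peroxiredoxins take their electrons mostly from thioredoxin, and glutathione peroxidases take theirs from glutathione. Glutathione transferases couple glutathione to reactive compounds such as the aldehydes that form when membrane lipids are oxidised. In liver, oxidation of ethanol is a known source of reactive oxygen species, and several of these enzymes are known targets of the transcription factor NRF2, which binds antioxidant response elements.

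The letters of such an element were looked for in RefSeq promoter windows of the GRCr8 assembly, 300 bases long, from 250 bases before to 50 bases after each annotated start. The motif was TGACNNNGC, on both strands, and 4038 of all 33469 windows held it (12.1%). Windows were present for 9 of the 10 genes, and those of Prdx1, Sod2 and Prdx5 held the motif. The 3 matches are shown because they are the stretches of these promoters that carry the motif. The capitals mark the motif, and each sequence is the strand opposite to the gene, 5′ to 3′.
Prdx1, chr5:135383755-135383795, minus strand: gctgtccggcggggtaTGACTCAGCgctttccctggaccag
Sod2, chr1:50050179-50050219, plus strand: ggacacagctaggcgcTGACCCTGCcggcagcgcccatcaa
Prdx5, chr1:213532004-213532044, plus strand: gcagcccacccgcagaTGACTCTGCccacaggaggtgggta
The motif of Prdx1 lay 127 bases before the start of transcription and that of Sod2 lay 27 bases before it, while that of Prdx5 overlapped the start. A match of letters is a description and does not show that a factor binds there.

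The libraries held 29566318 to 45079983 counted fragments. Values are given as CPM, a gene's count scaled to a common library total, with the totals adjusted by TMM factors that even out differences in composition. A count of 3, the smallest taken as detected, was worth 0.0666 to 0.104 CPM, and the lowest value of any of the 10 genes was 507 counts, for Gsta4. The dissections were not alike. Summed CPM of 5 pineal gland markers was 16000 in withdrawal rat 13 and at most 10.1 in every other rat, and summed CPM of 8 oligodendrocyte markers was 17000 in rat 13 and 30500 to 44600 in the others, while 5 choroid plexus markers summed to 388 CPM in rat 13. Hindbrain markers summed to 43.8 CPM in chronic ethanol rat 8 and 47.9 CPM in control rat 5, with Hoxa2 and Hoxa3 at 0 in all groups, and 6 dopamine neuron markers summed to 143 CPM in withdrawal rat 17. Results that rest on rat 13 are therefore also given without it.

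In the control ventral tegmental area these enzymes ranked from 130 to 2336 among the 17637 tested genes by median level per kilobase of exon. Levels of different genes are compared as CPM per kilobase of exon (CPM/kb). Sod1, the cytosolic copper-zinc dismutase, averaged 311 ± 30.6 CPM/kb in control rats (SD, n = 6), and Prdx2, a cytosolic peroxiredoxin abundant in neurons, averaged 309 ± 8.90 CPM/kb. The ranges of those genes overlapped, and they ranked 130 and 139. Gpx4, which reduces lipid peroxides inside membranes, followed at 195 ± 15.9 CPM/kb in control rats. Prdx1 at 184 ± 14.7, Prdx5 at 182 ± 11.6 and Prdx6 at 180 ± 13.6 CPM/kb could not be put in order, because each overlapped its neighbour and Prdx1 also overlapped Gpx4. Sod2, the manganese dismutase of mitochondria, averaged 153 ± 5.32 CPM/kb in control rats and lay below Prdx6 in 6 of 6 of them, without overlap. Gstm1 at 58.0 ± 9.21 and Gpx1 at 51.6 ± 11.3 CPM/kb overlapped, and Gsta4 was lowest at 33.0 ± 6.12 CPM/kb, with rank 2336. Gpx4 was above Gpx1 without overlap, and the mitochondrial Sod2 was below the cytosolic Sod1 without overlap.

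**Figure D1:**
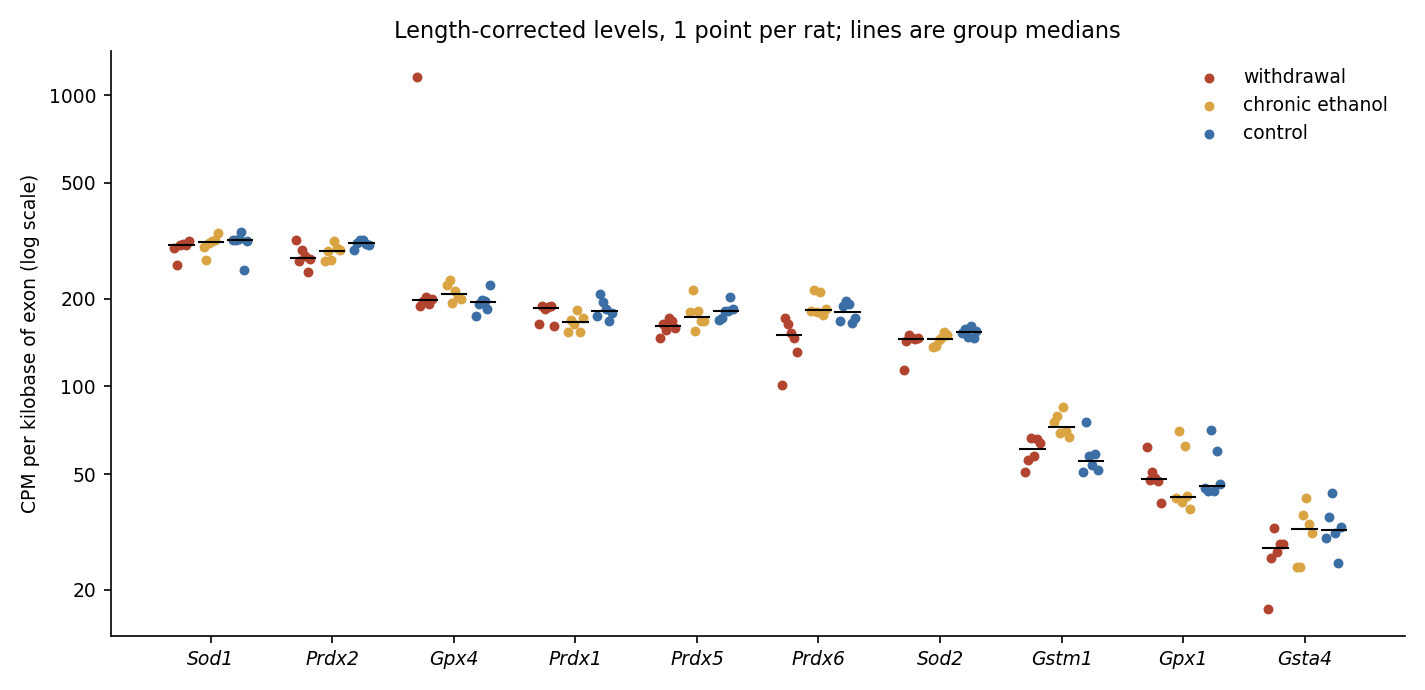
CPM per kilobase of exon on a log scale (vertical axis) for the 10 genes, ordered by their control mean (horizontal axis), with 1 point per rat and a line at each group median. In control rats Sod1 (311) and Prdx2 (309) stand above a cluster of Gpx4, Prdx1, Prdx5 and Prdx6 (180 to 195), and Gsta4 is lowest (33.0); the isolated Gpx4 point is withdrawal rat 13.

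In edgeR fitted to the groups alone, no member passed an adjusted p of 0.05 in any comparison over the 18 libraries. Neither did any other gene, while DESeq2 called Prdx6 and some other genes. In edgeR's quasi-likelihood test over all 18 libraries, with Benjamini-Hochberg adjustment over 17637 genes, the share of all genes called was 0.0% for chronic ethanol against control, 0.0% for withdrawal against control, 0.0% for withdrawal against chronic ethanol and 0.0% for any difference among the groups. At an unadjusted p under 0.05 the counts among the 10 were 2 for chronic ethanol against control, 4 for withdrawal against control and 2 for withdrawal against chronic ethanol. The same threshold was met by 5.84%, 9.82% and 15.3% of all genes in those comparisons. The 4 included Gpx4 (edgeR unadjusted p = 0.0367), whose change rested on rat 13. Without rat 13 the counts among the 10 were 3, 3 and 2, beside 1906, 1527 and 2475 of 17751 genes. DESeq2 called 1 member, Prdx6, in withdrawal against chronic ethanol and in the test of any difference, where it called 1.49% and 1.4% of all genes that it gave an adjusted p. In chronic ethanol against control and withdrawal against control DESeq2 called 0 members, and 0.201% and 0.243% of all genes. The limma-voom fit called 0 members in every comparison. The 3 pairwise comparisons share their groups, so their values are given side by side and not as support for each other. Because the tissue is a mixture, fewer cells of a type and less RNA per cell cannot be told apart in any value below.

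Among the peroxiredoxins, Prdx6 had the largest difference between groups. The gene lies at chr13:79077567-79088113, minus strand (Rnor_6.0, the build of all gene positions given from here). It encodes a peroxiredoxin with a single reactive cysteine that uses glutathione, can also act as a phospholipase, and in brain is found mainly in astrocytes. Its lowest, median and highest values were 86.6, 129 and 147 CPM in withdrawal rats, 150, 157 and 184 CPM in chronic ethanol rats, and 141, 154 and 168 CPM in control rats. All 6 withdrawal rats lay below every chronic ethanol rat, and 5 of 6 lay below every control rat. Groups without overlap in either direction were seen for 1.36% of all genes in withdrawal against chronic ethanol, 0.607% in withdrawal against control and 0.93% in chronic ethanol against control. The log2 change of Prdx6 was -0.40 ± 0.10 (SE) in withdrawal against chronic ethanol, with an edgeR unadjusted p of 0.000999 and an adjusted p of 0.123, which is above the threshold. DESeq2 gave -0.41 with an adjusted p of 0.0269. Against control the withdrawal change was -0.32 ± 0.10 (edgeR adjusted p = 0.401), and in chronic ethanol against control it was 0.09 ± 0.10 (adjusted p = 0.999).

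The size of the Prdx6 difference depended on rat 13 and on the library index. Without rat 13 the log2 change was -0.32 in withdrawal against chronic ethanol (edgeR adjusted p = 0.073) and -0.23 in withdrawal against control (edgeR adjusted p = 0.354). The first index in the library names falls into 3 sets, the first with rats 1 to 8, the second with rats 9 to 16 and the third with rats 17 and 18. Among rats 9 to 16 the mean log2 difference was -0.37 for 4 withdrawal against 4 chronic ethanol rats, compared with -0.42 over all rats, and the groups did not overlap. It was -0.20 without rat 13, again without overlap. The share of all genes without overlap within an index set was not computed, here or below. The shares given above are for 6 against 6 rats, and smaller groups separate more easily. No index set held both withdrawal and control rats. With the first index as a term in the edgeR fit the withdrawal change against control was -0.21, and -0.07 when rat 13 was also left out.

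The libraries with the lowest and the highest Prdx6 also had low and high sums of astrocyte markers, with exceptions. Summed CPM of 7 astrocyte markers, none of them at 0, ranged from 2580 to 5580 in withdrawal rats, from 3780 to 7780 in chronic ethanol rats and from 4170 to 6830 in control rats. Withdrawal rats 13, 18 and 17 had the lowest Prdx6 of all rats, at 86.6, 112 and 126 CPM, and astrocyte sums of 2580, 3560 and 4020 CPM. Chronic ethanol rats 8 and 10 had the highest Prdx6, at 184 and 180 CPM, and astrocyte sums of 6390 and 7780 CPM. Chronic ethanol rat 7 (155 CPM of Prdx6 and a sum of 3780 CPM) and control rat 5 (141 CPM of Prdx6 and a sum of 6830 CPM) did not follow this order. Neither did withdrawal rats 14, 15 and 16, whose sums of 5390, 5580 and 5090 CPM were above those of chronic ethanol rats 7, 9, 11 and 12 (3780 to 4980 CPM), while their Prdx6, at most 147 CPM, was below that of every chronic ethanol rat. The median log2 change of the 7 markers was -0.23 in withdrawal against chronic ethanol and -0.26 in withdrawal against control, where 5 and 6 of the 7 were lower and 0 were called. The part of astrocyte content in the Prdx6 result was not tested.

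**Figure D2:**
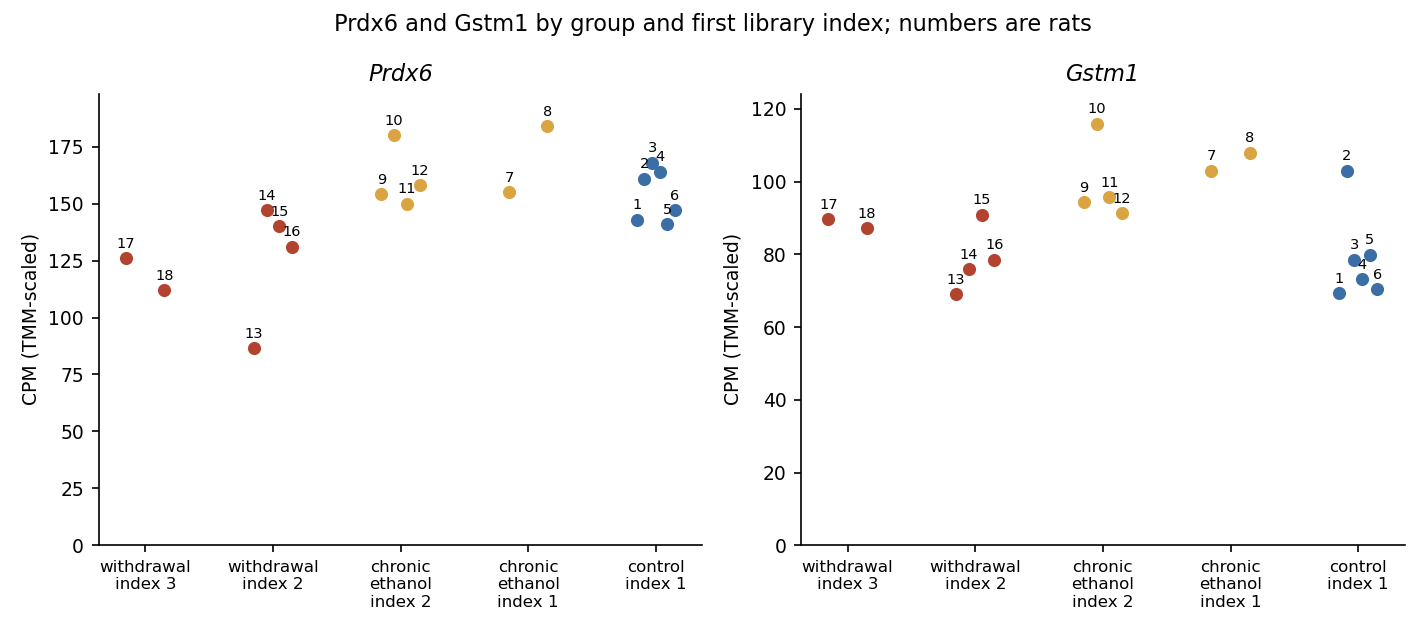
CPM of Prdx6 (left) and Gstm1 (right) for each rat on the vertical axis, split by group and first library index on the horizontal axis, with rat numbers beside the points. Within the second index the withdrawal rats lie below the chronic ethanol rats for both genes, and rat 13 is the lowest Prdx6 point (86.6 CPM).

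The other peroxiredoxins differed less. Prdx5 (chr1:222164462-222167447, minus strand), found in mitochondria, peroxisomes and cytosol, had lowest, median and highest values of 120, 132 and 139 CPM in withdrawal rats, 127, 142 and 175 CPM in chronic ethanol rats, and 138, 148 and 164 CPM in control rats. Of the withdrawal rats 5 of 6 lay below every control rat, with a log2 change of -0.18 ± 0.07 (edgeR adjusted p = 0.451). This direction turned round, to 0.05, with the first index as a term. Prdx2 (chr19:26084816-26090095, plus strand) averaged 296 ± 25.1 CPM in withdrawal rats, 307 ± 18.8 CPM in chronic ethanol rats and 327 ± 9.43 CPM in control rats (SD, n = 6 each). Its change in withdrawal against control was -0.14 ± 0.06 (edgeR adjusted p = 0.456), and 4 of 6 withdrawal rats were below every control rat although the groups overlapped. Rat 13, at 335 CPM, was the highest Prdx2 library of the withdrawal group, and without it the change was -0.18.

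Prdx1 (chr5:135536413-135551986, plus strand), a cytosolic peroxiredoxin and a known target of NRF2, had its lowest mean in the chronic ethanol rats. It averaged 158 ± 11.3 CPM in withdrawal rats, 147 ± 9.94 CPM in chronic ethanol rats and 163 ± 13.0 CPM in control rats. The change in chronic ethanol against control was -0.15 ± 0.06 (edgeR unadjusted p = 0.0287, adjusted p = 0.834), with 3 of 6 chronic ethanol rats below every control rat. In withdrawal against chronic ethanol it was 0.11 ± 0.06 (edgeR adjusted p = 0.417). Summed over the 4 peroxiredoxins, the level was 764 ± 34.0 CPM/kb in withdrawal rats, 824 ± 52.8 CPM/kb in chronic ethanol rats and 855 ± 31.7 CPM/kb in control rats, and the highest withdrawal sum was 798 CPM/kb against a lowest control sum of 804 CPM/kb. That sum was not tested, since the 4 genes were chosen with results known, and no share over all genes was computed beside it. It leaves out Prdx3 and Prdx4, with log2 changes of -0.05 and -0.18 in withdrawal against control. With the first index as a term, the changes in that comparison were -0.09 for Prdx1, -0.17 for Prdx2, 0.05 for Prdx5 and -0.21 for Prdx6.

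The superoxide dismutases had small differences between groups, which were larger with the library index in the fit. Sod1 (chr11:30363282-30368858, plus strand) averaged 194 ± 12.6 CPM in withdrawal rats, 201 ± 13.9 CPM in chronic ethanol rats and 202 ± 19.9 CPM in control rats, with log2 changes between -0.06 and -0.01 in the 3 comparisons. With the first index as a term these were -0.24 in withdrawal against control, -0.13 in withdrawal against chronic ethanol and -0.12 in chronic ethanol against control. Their edgeR adjusted p values were 0.793, 0.47 and 0.877. Among rats 9 to 16 the mean log2 difference of Sod1 in withdrawal against chronic ethanol was -0.13, without overlap, compared with -0.05 over all rats. Withdrawal rat 14 (170 CPM) and control rat 5 (163 CPM) were each well below the rest of their group. Sod2 (chr1:47914757-47921587, minus strand) averaged 291 ± 27.3 CPM in withdrawal rats, 299 ± 14.1 CPM in chronic ethanol rats and 317 ± 11.0 CPM in control rats. Most ethanol-exposed rats were below every control rat, 5 of 6 withdrawal rats and 4 of 6 chronic ethanol rats, but the sizes were small, with log2 changes of -0.12 ± 0.06 (edgeR adjusted p = 0.509) and -0.08 ± 0.06 (edgeR adjusted p = 0.969) against control. Rat 13 held the lowest Sod2 value, 236 CPM, and without it the withdrawal mean was 302 ± 5.49 CPM (SD, n = 5) and the change against control -0.07. With the first index as a term that change was -0.26 (edgeR adjusted p = 0.793), and -0.18 when rat 13 was also left out (edgeR adjusted p = 0.749). Over the 17 libraries other than rat 13, Sod2 had a coefficient of variation of 4.33%, and 2.98% of the tested genes varied less. The median over tested genes was 13.3%.

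Both glutathione peroxidases are selenoproteins. The high withdrawal mean of Gpx4, 406 ± 446 CPM, rested on rat 13, and without it the mean was 224 ± 6.04 CPM (SD, n = 5), against 240 ± 17.1 CPM in chronic ethanol rats and 222 ± 18.2 CPM in control rats (SD, n = 6 each). Gpx4 (chr7:12516357-12519154, minus strand) stood at 1320 CPM in rat 13, while the other 5 withdrawal rats ranged from 216 to 230 CPM, chronic ethanol rats from 220 to 264 CPM and control rats from 199 to 253 CPM. In rat 13 Gpx4 made up 47.5% of the summed CPM/kb of the 10 genes, against 11.1% to 14.1% in every other rat. The log2 change over all rats was 0.87 ± 0.38 in withdrawal against control (edgeR adjusted p = 0.487) and 0.76 ± 0.38 in withdrawal against chronic ethanol (edgeR adjusted p = 0.353). Without rat 13 these were 0.01 and -0.10. The summed CPM of 5 pineal gland markers, none of them at 0, was also highest in rat 13, at 16000. It was 3.29 to 10.1 in the other withdrawal rats, 3.27 to 9.98 in chronic ethanol rats and 2.76 to 6.68 in control rats. Outside rat 13 the sum was at most 10.1 CPM, too little for those rats to show whether Gpx4 follows it. Chronic ethanol rat 8, with the highest Gpx4 of those rats (264 CPM), had a sum of 3.27 CPM. Withdrawal rat 14, with their highest sum (10.1 CPM), had Gpx4 at 216 CPM. The choroid plexus sum was also highest in rat 13 (388 CPM). The part of these tissues in the Gpx4 value was not tested. Reads in named Gpx4 pseudogenes came to at most 0.158% of those in Gpx4 and the pseudogenes together.

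Gpx1 (chr8:117117430-117118528, plus strand), the cytosolic and mitochondrial peroxidase of hydrogen peroxide, had the widest spread of the 10 genes among chronic ethanol and control rats, with coefficients of variation of 28.1% and 21.9%. Its lowest, median and highest values were 35.1, 42.4 and 54.8 CPM in withdrawal rats, 33.5, 36.8 and 62.1 CPM in chronic ethanol rats, and 38.6, 40.2 and 62.6 CPM in control rats. Each group held 1 or 2 high libraries, which were withdrawal rat 13, chronic ethanol rats 8 and 10, and control rats 3 and 5. The log2 changes were between -0.07 and 0.01, each with an SE of 0.17, and adjusted p from edgeR was 0.907 to 0.999.

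**Figure D3:**
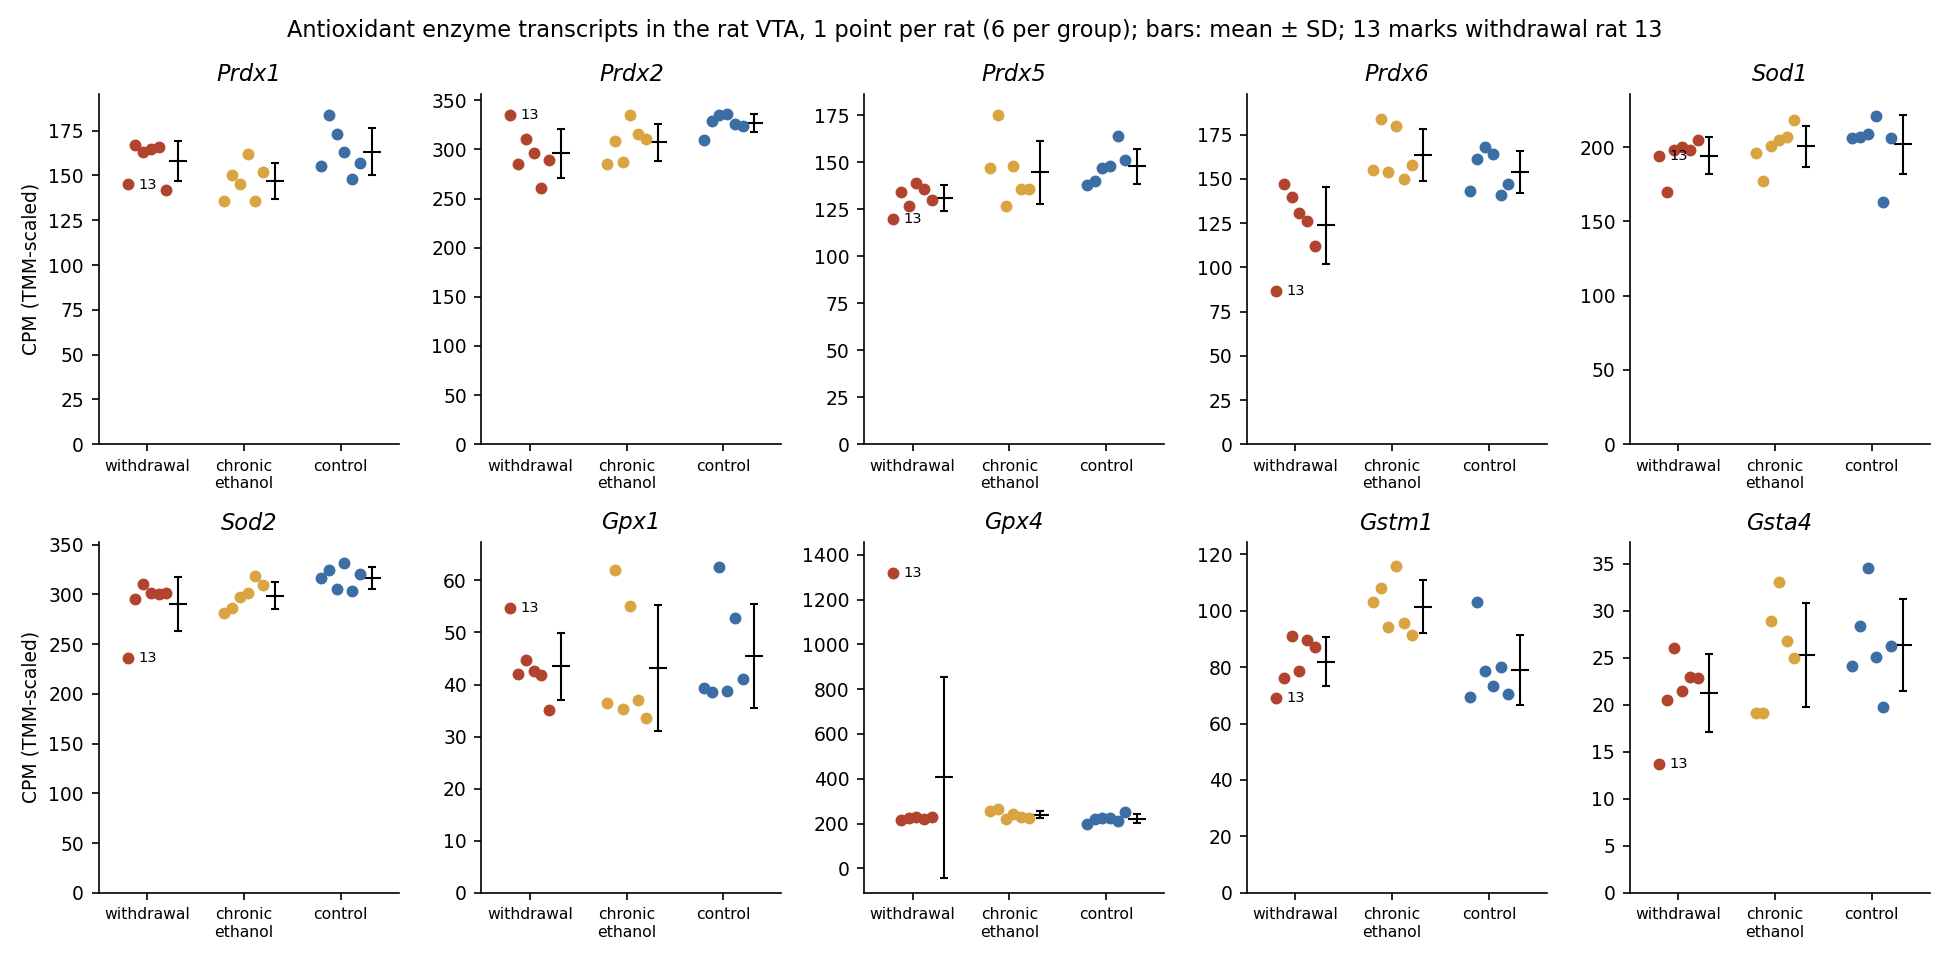
CPM of the 10 genes (vertical axes, each from 0 apart from that of Gpx4) in withdrawal, chronic ethanol and control rats, with 1 point per rat and a bar for the mean ± SD of 6 rats. Rat 13 is numbered, and it is the Gpx4 point at 1320 CPM and the lowest point for Prdx5, Prdx6, Sod2, Gstm1 and Gsta4.

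Gstm1 (chr2:210803869-210809461, minus strand), a mu-class glutathione transferase, had the largest difference of the 10 genes in chronic ethanol against control. Its lowest, median and highest values were 69.1, 82.9 and 90.9 CPM in withdrawal rats, 91.4, 99.2 and 116 CPM in chronic ethanol rats, and 69.4, 75.8 and 103 CPM in control rats. The chronic ethanol rats were all above 5 of the 6 control rats and above all withdrawal rats, and control rat 2, at 103 CPM, was the exception. The log2 change in chronic ethanol against control was 0.36 ± 0.10 (edgeR unadjusted p = 0.00164, adjusted p = 0.420), and in withdrawal against chronic ethanol it was -0.31 ± 0.10 (edgeR unadjusted p = 0.00515, adjusted p = 0.177). Withdrawal against control gave 0.05 ± 0.10 (edgeR adjusted p = 0.870). Without control rat 2 the change in chronic ethanol against control was 0.45 (edgeR adjusted p = 0.305), and without rat 13 the change in withdrawal against chronic ethanol was -0.26 (edgeR adjusted p = 0.219).

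Within the first index set the mean log2 difference of Gstm1 was 0.42 for chronic ethanol rats 7 and 8 against the 6 control rats, with overlap, compared with 0.36 over all rats. Within the second set it was -0.34 for withdrawal against chronic ethanol, without overlap. The 3 highest Gstm1 libraries among the chronic ethanol rats were rats 10, 8 and 7, with astrocyte sums of 7780, 6390 and 3780 CPM, and control rat 2 had an astrocyte sum of 6290 CPM. Control rat 5 had a higher sum, 6830 CPM, with Gstm1 at 79.9 CPM. The median log2 change of the 7 astrocyte markers in chronic ethanol against control was -0.08, with 4 lower and 3 higher. The median of their sum was 4840 CPM in chronic ethanol rats and 4700 CPM in control rats. The part of astrocyte content in the Gstm1 result was not tested. Gstm1 lies on rat chromosome 2 among close relatives such as Gstm2, Gstm4, Gstm6 and Gstm7. Fragments that align to several places were not counted, so the level of each of these genes is uncertain.

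Gsta4 (chr8:85497557-85514732, plus strand), an alpha-class transferase known for coupling glutathione to the lipid aldehyde hydroxynonenal, was the least abundant member. It averaged 21.3 ± 4.15 CPM in withdrawal rats, 25.3 ± 5.53 CPM in chronic ethanol rats and 26.4 ± 4.88 CPM in control rats. The withdrawal change against control was -0.31 ± 0.16 (edgeR adjusted p = 0.535), and -0.21 without rat 13, whose 13.7 CPM was the lowest value. With the first index as a term it was -0.94 (edgeR adjusted p = 0.793), and -0.80 when rat 13 was also left out (edgeR adjusted p = 0.748). No index set held both withdrawal and control rats, and chronic ethanol rats 7 and 8 alone shared the set of the control rats. In chronic ethanol against control the change was -0.06 ± 0.16 (edgeR adjusted p = 0.999), and -0.47 with the first index as a term (edgeR adjusted p = 0.7). The groups overlapped in all comparisons. Named Gsta4 pseudogenes held 10.9% to 18.9% of the reads in Gsta4 and those pseudogenes together, so the Gsta4 count may be split between copies. Within the first index set, chronic ethanol rats 7 and 8, both at 19.1 CPM, lay below every control rat, the lowest at 19.8 CPM. This set 2 rats against 6, and Prdx2, Sod2 and Gpx4 also did not overlap there, in either direction. Rat 8 was the chronic ethanol rat with hindbrain markers at 43.8 CPM.

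**Figure D4:**
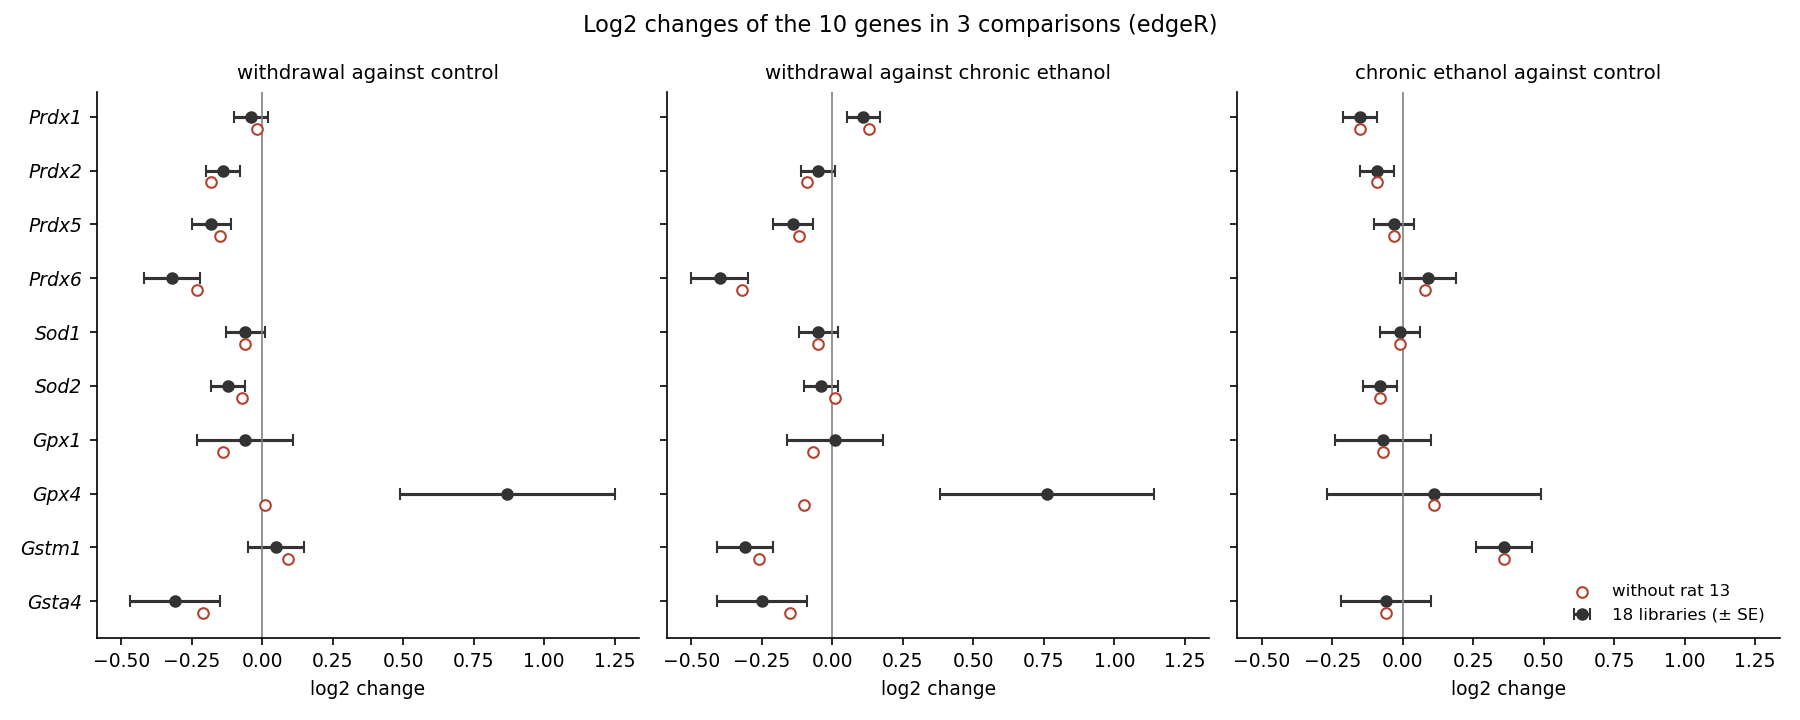
Log2 change (horizontal axis) of each of the 10 genes (vertical axis) in 3 panels (withdrawal against control at the left, withdrawal against chronic ethanol in the middle, chronic ethanol against control at the right), as filled points with SE bars over 18 libraries and open points for the fit without rat 13. The Gpx4 change of 0.87 in withdrawal against control is 0.01 without rat 13, and the Prdx6 change of -0.40 in withdrawal against chronic ethanol is -0.32 without it.

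Across the 10 genes the direction was mostly lower, by little, with no index term in the fit. Of the 10, 7 were lower in chronic ethanol against control, 8 in withdrawal against control and 7 in withdrawal against chronic ethanol, with median log2 changes of -0.05, -0.09 and -0.05. Over all tested genes 51.3%, 46.3% and 46.7% were lower in those comparisons, with medians of -0.00, 0.01 and 0.02. Without rat 13 the medians of the 10 were -0.11 in withdrawal against control and -0.10 in withdrawal against chronic ethanol, with 8 of 10 lower in each. All tested genes moved the same way when rat 13 was left out, with 53.1% and 52.8% lower and medians of -0.01 in both. Rat 13 alone had the lowest value of 5 of the 10 genes and the highest of Gpx4. With the first index as a term, Prdx5 and Gpx1 turned to higher in both comparisons against control. Higher in chronic ethanol rats were then Prdx5 (0.12), Prdx6 (0.14), Gpx1 (0.12), Gpx4 (0.22) and Gstm1 (0.41). Higher in withdrawal rats were Prdx5 (0.05), Gpx1 (0.31), Gpx4 (1.33, or 0.18 without rat 13) and Gstm1 (0.07). The other members were lower. No member turned in withdrawal against chronic ethanol.

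**Figure D5:**
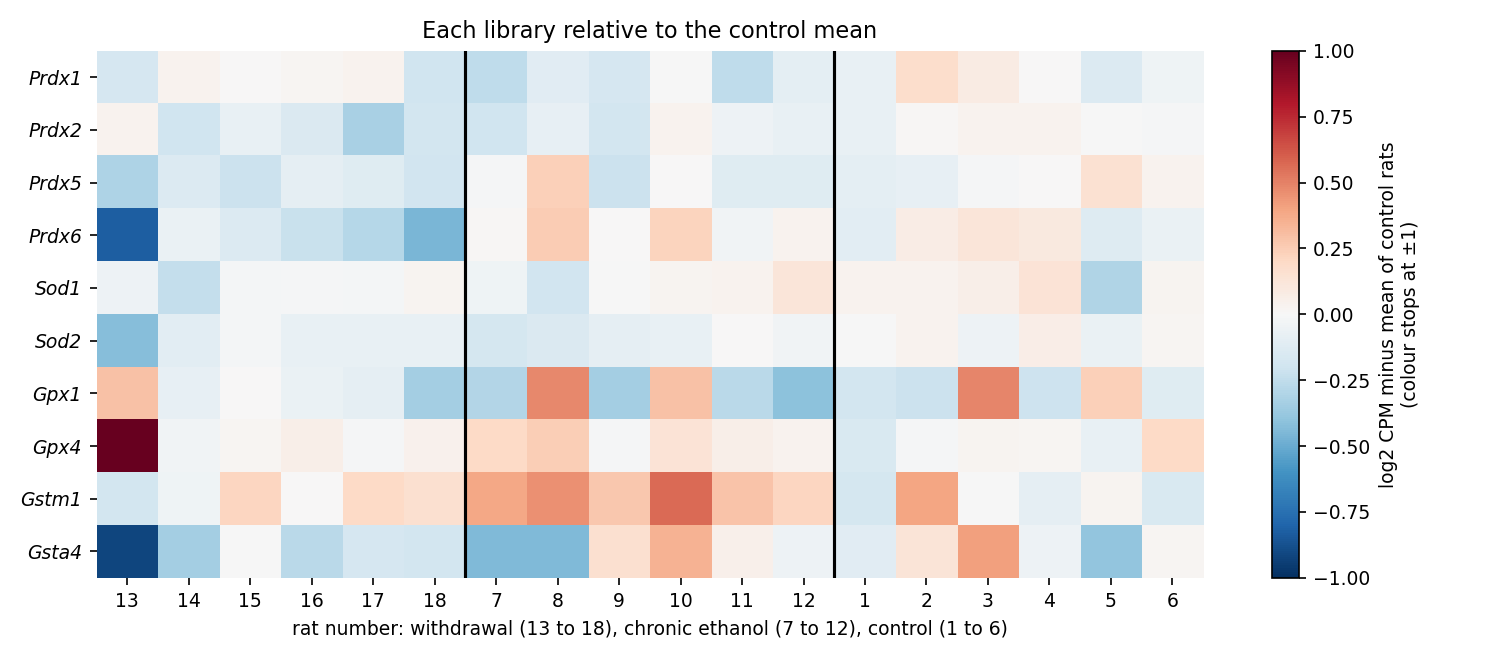
Log2 CPM of each gene (rows) in each rat (columns, with withdrawal, chronic ethanol and control rats from left to right), as the difference from the mean of the 6 control rats, with colour stopping at 1 in either direction. Rat 13 stands apart with high Gpx4 (1320 CPM) and low Prdx6 (86.6 CPM) and Gsta4 (13.7 CPM), and the Gstm1 row is above the control mean in all 6 chronic ethanol rats.

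The members did not vary as 1 unit across rats. Of 45 pairs of members, 2 had a Spearman rho with a permutation p under 0.05 after adjustment over the 45, Sod1 with Sod2 (rho = 0.75, permutation p = 0.00038, adjusted p = 0.0171) and Sod1 with Gsta4 (rho = 0.69, permutation p = 0.00203, adjusted p = 0.0457), over 18 libraries. Their Pearson r was 0.37 (permutation p = 0.134, adjusted p = 0.377) and 0.53 (permutation p = 0.027, adjusted p = 0.162), no pair passed by Pearson r, and without rats 5, 8, 13 and 17 no pair passed by either measure. Without the 2 libraries farthest from the median, r was 0.58 and 0.53. Over the 14 libraries without rats 5, 8, 13 and 17, rho was 0.74 for Sod1 with Sod2 (permutation p = 0.00366, adjusted p = 0.0817). For Sod1 with Gsta4 it was 0.44 there (permutation p = 0.117, adjusted p = 0.405). In a search of the 15028 genes that averaged 1 CPM or more, the gene whose pattern over the 18 libraries was most like Prdx6 was Cox7a2l (rho = 0.91), most like Prdx5 was Ndufab1 (0.91), most like Gpx4 was Use1 (0.89) and most like Gstm1 was Fgfr3 (0.86). For the other members these were Kif16b with Prdx1 (0.89), Pgk1 with Prdx2 (0.90), Morf4l2 with Sod1 (0.90), Snx10 with Sod2 (0.85), Wls with Gpx1 (0.89) and Acadl with Gsta4 (0.82). These values are the highest of a large search and share each library's composition, so they describe likeness only.

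Other genes of the same pathways were read from lists of enzymes, and 0 were called by edgeR in any list or comparison, against the 0.0% of all genes above. Of 5 other enzymes of peroxides and superoxide, 3 were lower in withdrawal against control, with 1 at an unadjusted p under 0.05. That gene was Prdx4, the peroxiredoxin of the endoplasmic reticulum, at 15.5 ± 1.45 CPM in withdrawal rats and 17.5 ± 1.20 CPM in control rats (log2 change -0.18 ± 0.08, edgeR unadjusted p = 0.0334, adjusted p = 0.483). Without rat 13 all 5 were lower and 0 had an unadjusted p under 0.05, with Prdx4 at -0.14 (edgeR unadjusted p = 0.0614). Catalase (Cat), which breaks down hydrogen peroxide in peroxisomes, averaged 122 ± 9.47 CPM in chronic ethanol rats and 134 ± 17.8 CPM in control rats (edgeR adjusted p = 0.951). Of 22 other glutathione transferases, 17 were tested. Gstm7, a neighbour of Gstm1, averaged 134 ± 27.1 CPM in withdrawal rats, 164 ± 32.4 CPM in chronic ethanol rats and 147 ± 17.7 CPM in control rats, with a log2 change of -0.29 ± 0.14 in withdrawal against chronic ethanol (edgeR adjusted p = 0.341). That change was -0.20 without rat 13 and -0.43 with the first index as a term. In chronic ethanol against control the Gstm7 change was 0.16 ± 0.14, and -0.15 with the first index as a term. The neighbours Gstm2, Gstm4 and Gstm6 were higher in withdrawal against chronic ethanol, at 0.65 ± 0.57, 0.28 ± 0.19 and 0.98 ± 0.53. Rat 13 was the highest withdrawal rat for each of them, and held 47.4 CPM of Gstm4 and 21.1 CPM of Gstm6. The other withdrawal rats held 16.9 to 21.6 CPM of Gstm4 and 2.18 to 2.8 CPM of Gstm6. The withdrawal medians of Gstm4 and Gstm6, 18.9 and 2.51 CPM, were below the chronic ethanol medians of 19.4 and 2.93 CPM. The Gstm2 median was higher in withdrawal rats, at 3.96 against 1.85 CPM. The lowest p of the list in that comparison was for Gstk1 (-0.32 ± 0.14, edgeR unadjusted p = 0.0382, adjusted p = 0.309). Of 6 other glutathione peroxidases, 4 were tested, and Gpx8, of the endoplasmic reticulum, was at 12.3 ± 1.41 CPM in chronic ethanol rats and 14.7 ± 2.91 CPM in control rats (edgeR adjusted p = 0.838).

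The thioredoxin system, which recharges peroxiredoxins, held the lowest p of these lists. Txnrd1, the cytosolic thioredoxin reductase and itself a selenoprotein, had lowest, median and highest values of 83.5, 87.7 and 90.3 CPM in withdrawal rats, 74.2, 76.5 and 87.1 CPM in chronic ethanol rats, and 81.3, 83.9 and 88.3 CPM in control rats. Chronic ethanol rat 11, at 87.1 CPM, was the exception to lower values in that group, and 5 of 6 chronic ethanol rats were below every control rat. The log2 change was 0.16 ± 0.04 in withdrawal against chronic ethanol (edgeR adjusted p = 0.135) and -0.12 ± 0.04 in chronic ethanol against control (edgeR adjusted p = 0.796). Srxn1, sulfiredoxin, which restores overoxidised peroxiredoxins, averaged 35.4 ± 3.27 CPM in withdrawal rats, 43.1 ± 8.26 CPM in chronic ethanol rats and 44.7 ± 9.95 CPM in control rats, with a change of -0.34 ± 0.13 in withdrawal against control (edgeR adjusted p = 0.453). Of the 12 genes in this list, 5 were lower in withdrawal against control, and 11 were lower without rat 13. Over all tested genes 46.3% were lower with rat 13 and 53.1% without it. The Srxn1 change was -0.07 with the first index as a term.

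Of 18 genes of glutathione synthesis and recycling, 12 were lower in withdrawal against control and 12 in withdrawal against chronic ethanol. Without rat 13 these counts were 13 and 14. Over all tested genes 46.3% and 46.7% were lower in those comparisons, or 53.1% and 52.8% without rat 13. In chronic ethanol against control 6 of the 18 were lower, beside 51.3% of all tested genes. Gclm, the modifier subunit of the enzyme that sets the pace of glutathione synthesis, averaged 41.7 ± 4.42 CPM in withdrawal rats, 42.9 ± 1.61 CPM in chronic ethanol rats and 46.9 ± 2.36 CPM in control rats. Its change was -0.17 ± 0.06 in withdrawal against control (edgeR adjusted p = 0.436), and 5 of 6 chronic ethanol rats were below every control rat. Among 8 regulators, Bach1, a repressor at antioxidant response elements, averaged 5.65 ± 0.489 CPM in withdrawal rats, 4.70 ± 0.400 CPM in chronic ethanol rats and 5.50 ± 0.464 CPM in control rats, with a change of 0.27 ± 0.09 in withdrawal against chronic ethanol (edgeR adjusted p = 0.203). Keap1, which holds NRF2 in check, averaged 67.6 ± 3.38 CPM in chronic ethanol rats and 60.4 ± 4.09 CPM in control rats (edgeR adjusted p = 0.834). Of 8 genes of selenoprotein synthesis, 0 had an unadjusted p under 0.05 in any comparison over the 18 libraries.

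Markers of red blood cells stood lower in both ethanol groups, without a call. Summed CPM of 5 red blood cell markers, none of them at 0, ranged from 93.5 to 175 in withdrawal rats, from 53.0 to 237 in chronic ethanol rats and from 186 to 527 in control rats, so the chronic ethanol and control ranges overlapped. In withdrawal and in chronic ethanol against control 5 of 5 markers had a negative log2 change, with medians of -1.36 and -1.34, and 0 of 5 were called by edgeR although 5 had an unadjusted p under 0.05. In withdrawal against chronic ethanol the median was -0.06, and 0 were called. Prdx2, Gpx1, Sod1 and Cat are also abundant in red blood cells. The part of blood content in the lower Prdx2 values of the withdrawal rats was not tested.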

How the data were processed

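The files deposited by the authors hold raw fragment counts for each gene, made with featureCounts 1.5.0 on Rnor_6.0 RefSeq genes with reverse strandedness, per the file headers; pairs that aligned to several places or genes were not counted. STAR 2.5.2a is named in the submitters' processing notes. Stranded mRNA libraries were read for 101 cycles from each end, and RNA integrity numbers were above 8.0, per the labels. Gene symbols were matched by gene identifier for 29322 of 38445 genes. Genes passing edgeR's expression filter (17637) were fitted with edgeR 4.0.16 (R 4.3.3) over all 18 libraries, with TMM factors, quasi-likelihood F tests and Benjamini-Hochberg adjustment; SE is the log2 change over the square root of F. DESeq2 1.42.0, limma-voom 3.58.1 and other settings were alternatives, and the steps were tested on simulated data. Correlations used 100000 permutations. The 10 genes, the lists and the libraries left out were chosen with earlier results of these data known. Named beside the 10 genes were the 2 genes of lowest p per list and comparison, and the 2 of highest rho per member, of which those described are given. The labels give each rat its own identity, but p-values measure only the spread between these rats.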

Additional observations from a re-analysis of the deposited data

Results flagged for a closer look

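Within groups of 6 rats, the gap between the highest or lowest rat and its neighbour was set against the range of the group, for 39 genes and 117 combinations of gene and group. Chance marks about 1 in 20 such groups. There were 22 values that stood apart, 5 of them among the 10 antioxidant enzymes and 9 in withdrawal rat 13. Their causes were not tested.

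Of the 5, Gpx4 was at 1320 CPM in withdrawal rat 13, above 216 to 230 CPM in the other withdrawal rats, and Sod2 was at 236 CPM in the same rat, below 295 to 310 CPM. Sod1 was at 170 CPM in withdrawal rat 14, below 194 to 205 CPM, and at 163 CPM in control rat 5, below 206 to 221 CPM. Gstm1 was at 103 CPM in control rat 2, above 69.4 to 79.9 CPM in the other control rats.

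Of the other genes, rat 13 was highest of the withdrawal rats for Nxn (29.7 CPM), Sod3 (85.1 CPM), Gpx7 (5.94 CPM), Gstm6 (21.1 CPM), Secisbp2 (46.1 CPM), Sepsecs (66.1 CPM) and Nfe2l2 (71.3 CPM). Among chronic ethanol rats, Ccs (22.9 CPM) and Gstk1 (29.8 CPM) were highest in rat 10, Txnrd1 (87.1 CPM) in rat 11 and Srxn1 (58.9 CPM) in rat 8. Among control rats, Cat was lowest in rat 1 (99.6 CPM) and Gstm6 in rat 5 (1.37 CPM), while Gstm2 was highest in rat 3 (17.6 CPM), Srxn1 in rat 5 (64.6 CPM), and Eefsec (25.8 CPM) and Keap1 (68.2 CPM) in rat 6.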

How the results depend on the processing

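No paired analysis was possible because no rat number occurs in more than 1 group. Of 840 recomputed log2 changes of the 10 genes, 811 kept their direction and their side of the threshold, 28 turned round and 1 passed the threshold, Prdx6 in withdrawal against chronic ethanol by DESeq2 (-0.41), which also called 1 member for any difference. With the first index as a term, Prdx5 turned to 0.12 and Gpx1 to 0.12 in chronic ethanol against control (0.12 and 0.11 also without rat 13, an alternative chosen after seeing the data), and in withdrawal against control Prdx5 to 0.05 and Gpx1 to 0.31 (0.09 and 0.22 without rat 13). Without rats 5, 8, 13 and 17, Gpx4 was -0.0019 in withdrawal against control and -0.06 in withdrawal against chronic ethanol, where Sod2 was 0.0029. There Gpx4 was -0.04 with the index and without rat 13, and Gpx1 was -0.002 with no filter. Leaving out 1 rat at a time gave, in chronic ethanol against control, -0.21 to 0.04 for Gpx1, -0.15 to 0.03 for Gsta4 and -0.06 to 0.03 for Sod1. It gave -0.14 to 0.04 for Gpx1 in withdrawal against control, and in withdrawal against chronic ethanol -0.07 to 0.14 for Gpx1, -0.10 to 0.87 for Gpx4 and -0.06 to 0.01 for Sod2.

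Over all genes, DESeq2 called 38 in chronic ethanol against control and 42 in withdrawal against control. It called 266 in withdrawal against chronic ethanol and 264 for any difference. In each of these tests edgeR fitted to the groups alone over the 18 libraries called 0. In chronic ethanol against control, limma-voom, the index term, a fit of only the 2 groups and the fit without the 4 rats each called 2, the index without rat 13 called 9, and a threshold of 0.10 called 1. In withdrawal against chronic ethanol the fit without the 4 rats called 2 and the threshold of 0.10 called 83. For any difference, limma-voom called 2, the fit without the 4 rats 1, and the index without rat 13 called 5. Leaving out 1 rat at a time gave 0 to 4, 0 to 2, 0 to 24 and 0 to 12 calls in those 4 tests, and 0 members. Without the 4 rats 0 pairs of members passed, against 2, with rho of Sod1 with Sod2 at 0.74 against 0.75. Gpx4 had no DESeq2 p. The causes of these differences were not tested.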
